A study of Mus musculus with 18 samples.

Results

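Goblet cells of the Lgr5+ sort were the subject. They are barcodes of the 4 single-cell libraries made from sorted GFP-positive ileal crypt cells, and they numbered 3411 of 25204 kept barcodes in those libraries, or of 42869 in all 8 single-cell libraries of the series. They were chosen by measured values: a barcode with 1000 to 18000 UMIs (unique molecular identifiers, each a counted transcript), 200 to 4000 genes and under 5% mitochondrial UMIs was kept, and a kept barcode was taken as a goblet cell where Muc2, Zg16, Clca1 and Fcgbp together held at least 1% of its UMIs and the Paneth cell defensins (genes starting Defa) under 10%. These genes are called the gate genes below, and their levels are given without a test because they chose the cells.

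Lgr5+WT libraries came from Lgr5-GFP-CreERT2 mice and Lgr5+Setdb1KO libraries from Lgr5-GFP-CreERT2/ Setdb1lox/lox mice, with 2 libraries, replicates 1 and 2, per genotype, which the study's methods describe as independent biological replicates. Mice were C57Bl6, 60 to 65 days old, and all of them, controls included, carried the Lgr5 knock-in allele and received 1 intraperitoneal dose of tamoxifen (70 mg/kg in corn oil) 5 days before analysis. The knock-in drives GFP and a tamoxifen-dependent Cre in Lgr5+ stem cells, in only part of the crypts because the allele is silenced at random, so that Setdb1, an enzyme that methylates histone H3 at lysine 9, is deleted only in cells that expressed Cre and in their descendants. Which goblet barcodes of the Setdb1-KO libraries descend from a deleted stem cell was not measured, and the WT mice carry no floxed alleles, so that loss of Setdb1 and any other difference between the stocks cannot be told apart. The second pair of groups, used only for comparison, is lineage-traced: the same 2 genotypes with an nTnG reporter allele (Lgr5-GFP-CreERT2/nTnG and Lgr5-GFP-CreERT2/ Setdb1lox/lox/nTnG), in which GFP marks stem cells and all their progeny.

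Goblet cells are the mucus-secreting cells of the intestinal epithelium. They arise from crypt progenitors that express the transcription factor Atoh1, mature under Spdef, and fill their cytoplasm with granules of the gel-forming mucin Muc2, which is folded and cross-linked in the endoplasmic reticulum, heavily O-glycosylated in the Golgi and released together with proteins that shape and defend the mucus. Fcgbp is a large mucus protein, Clca1 a secreted protease that processes the gel, Zg16 a small lectin-like protein that binds Gram-positive bacteria, Agr2 a disulfide isomerase needed for Muc2 synthesis, and Tff3 a trefoil peptide of the mucus.

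The Lgr5+WT libraries held 685 goblet barcodes of 4764 kept and 674 of 6133, and the Lgr5+Setdb1KO libraries 441 of 2889 and 1611 of 11418. Library totals ran from 50722926 to 81876035 UMIs. Median depth of the goblet barcodes was 6993 and 6004 UMIs in WT libraries against 8234 and 4359 UMIs in Setdb1-KO libraries, with 1920, 1750.5, 2110 and 1387 genes in the same order, so the second Setdb1-KO library was the shallowest per cell and gave the most cells. A doublet caller rebuilt on these files marked 11.2%, 13.6%, 4.99% and 20.2% of the goblet barcodes in that order. Of all kept barcodes it marked 3.82%, 4.91%, 2.32% and 9.13%, a lower share in every library. Marked barcodes were kept in the main analysis and removed in an alternative. The 4 libraries shared 3 to 24 kept barcode sequences per pair, none of them between goblet barcodes of 2 libraries (0 in every pair).

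The share of the gate genes ran without a gap from the threshold upwards, with medians of 7.94% and 5.22% in WT libraries against 5.94% and 6.45% in Setdb1-KO libraries and highest values of 63.8%, 58.7%, 61.4% and 68.7% of a barcode's UMIs. Just outside the threshold, at 0.9 to 1%, lay 101 barcodes, and just inside, at 1 to 1.1%, lay 98. The barcodes just outside carried 10462 to 22763 Agr2 CPM (a gene's UMIs per 1000000 UMIs) and 10108 to 12980.1 Tff3 CPM over the 4 libraries, and those just inside 15559 to 26614 and 10881 to 15175, so the threshold crosses a continuum. The defensin limit removed 14, 23, 16 and 57 further barcodes in library order.

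**Figure D1:**
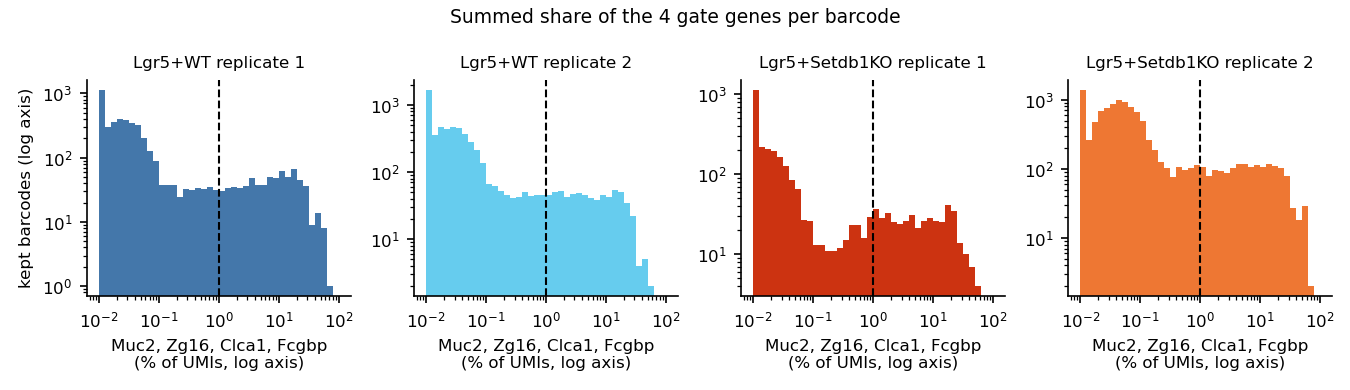
Histogram of kept barcodes (vertical axis, log scale) by the summed share of Muc2, Zg16, Clca1 and Fcgbp in a barcode's UMIs (horizontal axis, percent, log scale, with barcodes at or below the left edge collected in the first bar), 1 panel per library. The dashed line at 1% is the threshold, and barcodes lie on both sides of it in every library.

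The 3 marker genes that the rule did not use were higher in goblet barcodes than in other barcodes in all 4 libraries. Agr2 stood at 25920.5 and 22254 CPM in WT libraries against 25726 and 18983 CPM in Setdb1-KO libraries, against 1146, 1173, 982 and 1344 CPM in the other kept barcodes of the same libraries. Tff3 stood at 20137 and 18016 CPM in WT libraries against 23205 and 19523 CPM in Setdb1-KO libraries against 708, 876, 781 and 1079.9 CPM, and Rep15, which encodes an effector of the small GTPase Rab15, at 497 and 543 CPM in WT libraries against 584 and 645 CPM in Setdb1-KO libraries against 12.6, 17.1, 10.9 and 27.5 CPM. The lowest goblet library lay above the highest value of other barcodes for each of them. Because the gate and these genes move together in the same cells, these differences describe the cells and were not tested.

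**Figure D2:**
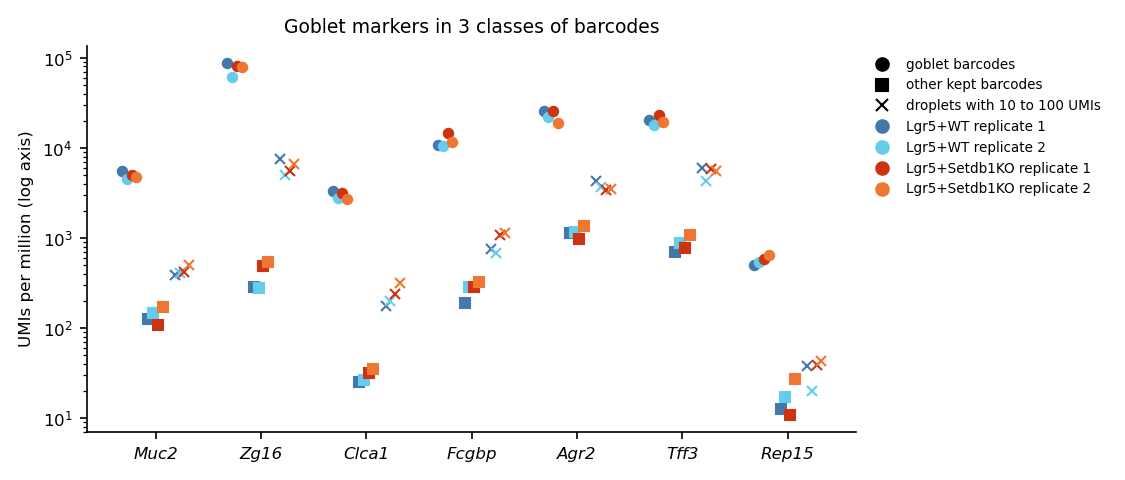
Levels of the 7 goblet markers (vertical axis, CPM, log scale) in goblet barcodes (circles), other kept barcodes (squares) and droplets of 10 to 100 UMIs, which hold free RNA (crosses), with 1 point per library. Circles lie above squares and crosses for every gene, and Rep15 has the lowest crosses, 20.2 to 43.1 CPM.

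Among genes of at least 100 CPM in every library, with the 4 gate genes left out and ordered by the smallest fold over the other barcodes in any library, the calpain Capn9 came first, with 40.8 to 71.8-fold over the 4 libraries, followed by Bcas1 (26.8 to 41.9-fold), Rep15 (23.5 to 53.4-fold), the calcium-binding protein S100a6 (22.8 to 35.8-fold) and the actin-severing protein scinderin, Scin (22.6 to 39.6-fold). Spink4, a Kazal-type peptidase inhibitor, stood at 34926 to 39516 CPM (11.5 to 21.1-fold) and Guca2a, the peptide hormone guanylin, at 3575 to 4195 CPM (13.2 to 26.3-fold). Kallikrein Klk1 was higher by 12.4 to 22.9-fold and the chemokine Ccl6 by 13.7 to 26.9-fold. The transcription factors Klf4, Atoh1 and Spdef were higher by 9.59 to 12.6-fold, 8.87 to 15.6-fold and 8.02 to 14.2-fold.

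Markers of other cells were present in goblet barcodes. The 16 Paneth genes, which include defensins limited by the rule, summed to 7866, 11534, 9871 and 13003 CPM in library order. The other kept barcodes held 11166, 11997, 9738 and 43107 CPM, so that the goblet sum was not lower in the first Setdb1-KO library. Droplets with few UMIs held 64085, 85635, 109643 and 147630.2 CPM. The 16 T cell and other blood cell genes summed to 2.91, 14.3, 0 and 2.73 CPM, with Cd3e, Ighm and Hba-a1 at 0 in every goblet barcode. The 16 stem cell genes summed to 962 and 1148 CPM in WT libraries against 578 and 914 CPM in Setdb1-KO libraries, against 5884, 5296, 3647 and 3079 CPM in the other barcodes. Enterocyte genes summed to 3734, 4437, 4023 and 4225 CPM and enteroendocrine genes to 483, 370.4, 530.5 and 610.4 CPM. Free RNA could account for at most 2.24%, 2.28%, 2.69% and 2.69% of the UMIs of goblet barcodes, a bound set by the gene that was lowest in them relative to droplets with few UMIs. This gene was Gm14851, Defa21, Defa21 and Gm15293 in library order. Since the rule limited genes starting Defa, the bound describes the selected barcodes only. The GFP transcript, the basis of the sort, was found as 1 UMI in 3411 goblet barcodes. Of the other kept barcodes, 15, 20, 9 and 15 of 4079, 5459, 2448 and 9807 held it (0.368%, 0.366%, 0.368% and 0.153%). Over the 4 libraries together the share was 0.0293% of goblet barcodes (exact Clopper-Pearson 95% interval 0.000742 to 0.163%) against 59 of 21793 other barcodes, 0.271% (0.206 to 0.349%), where the intervals cover counting error only. In the 3 libraries without a GFP UMI in goblet barcodes, the same exact interval reaches up to 0.537%, 0.546% and 0.833%, so that no single one of these could show a lower share than in its other barcodes. In the lineage-traced libraries, also sorted by GFP, 0.106% and 0% (WT) and 0.212% and 0.113% (Setdb1-KO) of the other barcodes held it. The transcript was thus rarely found in any library, and these counts do not show which barcodes made GFP. The labels name the sorted cells stem cells, while the goblet barcodes held the goblet markers at high levels and less of the stem cell genes than the other barcodes.

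Goblet barcodes varied along the share of their UMIs given to the gate genes, and other genes moved with it in the same way in all 4 libraries. Barcodes were grouped into shares of 1 to 2%, 2 to 4%, 4 to 8% and over 8%, and levels are CPM outside the gate genes, so that the gate genes do not dilute the others. The bin over 8% held 49.1% and 38.3% of goblet barcodes in WT libraries against 42.9% and 43.5% in Setdb1-KO libraries, with overlap between the genotypes. Since the gate genes define the bins, the shares and the levels along them are a description with no test.

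Of 37 mucus proteins and secreted products outside the gate, 22 were higher in the highest than in the lowest bin in all 4 libraries, 5 were lower in all 4 and 10 were mixed, tied or not found. Of 2362 genes of at least 50 CPM, 653 were higher and 1012 lower in all 4. Tff3 went from 12128, 11559.5, 15183 and 12556 CPM in the lowest bin to 32339.9, 30399, 37016 and 33196 in the highest, and it was higher at every step in all 4 libraries. The fold between the highest and lowest bin was 2.44 to 2.67 for Tff3, 1.70 to 2.06 for Spink4, 1.48 to 1.61 for Agr2, 2.83 to 3.25 for Klk1 and 2.01 to 2.14 for the tryptase Tpsg1. Lypd8, a secreted protein that binds bacterial flagella, had a fold of 2.27 to 3.03, Ccl6 one of 2.23 to 6.102 and colipase, Clps, one of 2.77 to 4.70. Among all genes of at least 50 CPM, the glutathione transferase Gsta4 had the steepest climb, with a fold of 8.16 to 17.0, and it was joined by Gsta1 (6.38 to 14.7), S100a6 (3.32 to 7.70) and Krt20, a keratin of differentiated epithelium (4.01 to 5.57).

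Other genes were level or went the opposite way. Spdef (0.866 to 1.58) and Elf3 (0.853 to 1.03) did not move in a common direction, and Atoh1 ended higher (1.27 to 1.43) without a steady climb in any library. Guca2b, the peptide uroguanylin, was lower in the highest bin, with folds of 0.320 to 0.611, in contrast to guanylin, Guca2a (1.63 to 2.08). Muc4 (0.251 to 0.574) and the lectin Itln1 (0.182 to 0.983) were lower there in all 4 libraries, and Ang4 (0.765 to 1.16) was higher in 2 of them. The chemokine Ccl9 (0.494 to 0.727), the lectin Reg4 (0.367 to 0.676) and the matrix protease Mmp7 (0.265 to 0.620) were also lower there in all 4 libraries, as were the progenitor factors Sox4 (0.207 to 0.525), Sox9 (0.456 to 0.695) and Ascl2 (0.236 to 0.599). The 10 genes of dividing cells summed from 1199, 904, 1063 and 1190.0 CPM in the lowest bin to 232, 175, 70.2 and 275 in the highest. Depth differed little between the bins: median UMIs per barcode of the highest bin were 6974, 5936, 8609 and 4323, and those of the lowest 7287, 5708, 7842 and 4088.

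**Figure D3:**
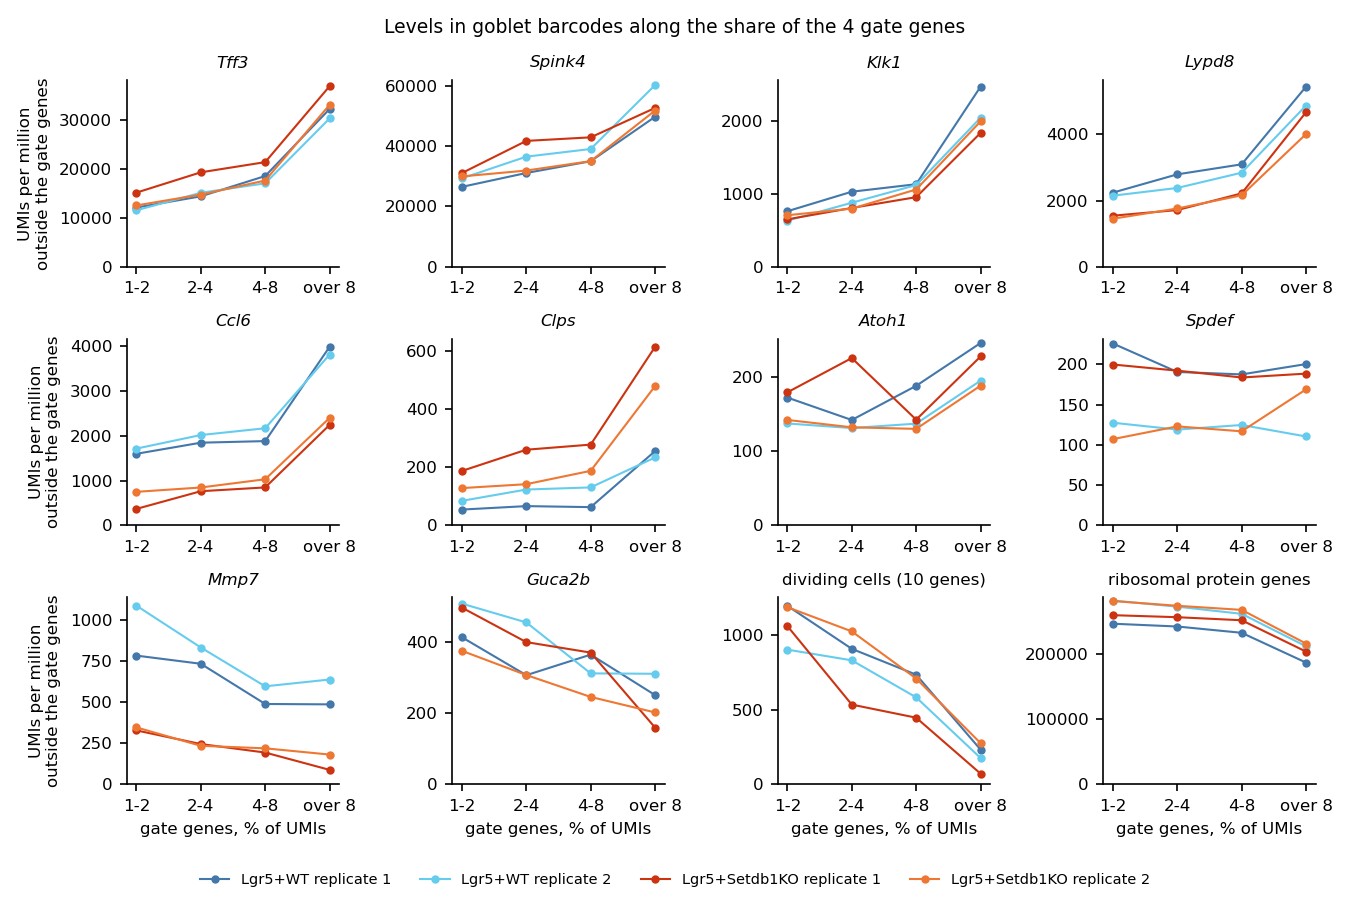
Levels of 10 genes and 2 gene groups in goblet barcodes (vertical axis, CPM outside the gate genes) by the share of the 4 gate genes (horizontal axis, percent of UMIs, 4 bins), with 1 line per library. Tff3, Spink4, Klk1, Lypd8 and Ccl6 climb in every library and the genes of dividing cells fall away, while the Ccl6 lines of the WT libraries lie above those of the Setdb1-KO libraries in every bin.

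The share of goblet barcodes and the share of them that were dividing both overlapped between the genotypes. The smallest p that an exact test of 2 against 2 libraries allows is 0.333, so that no such test could have shown a difference here. Goblet barcodes made up 14.4% and 10.99% of kept barcodes in WT libraries against 15.3% and 14.1% in Setdb1-KO libraries, a mean of 12.7 ± 2.40% against 14.7 ± 0.817% (SD, n = 2 libraries each, difference 2.00 percentage points, exact two-sided permutation test, p = 0.667). The difference was 0.308 percentage points without WT replicate 2 and 3.70 without WT replicate 1. This share depends on what else passed the sort and the filters. A barcode was scored as dividing with at least 2 UMIs of the 10 dividing cell genes after every barcode was thinned to 2000 UMIs, which left out 19, 9, 9 and 81 shallower barcodes in library order. By this measure 14.7% and 15.2% of goblet barcodes in WT libraries against 12.5% and 17.97% in Setdb1-KO libraries were dividing (means 15.0 ± 0.335% and 15.2 ± 3.87%, exact two-sided permutation test, p = 1), or 12.4%, 12.3%, 10.2% and 15.0% without thinning and with the genes at 0.1% of UMIs or more. The other kept barcodes gave 38.8%, 33.5%, 28.2% and 34.4% on the second measure. Dividing goblet barcodes sat at the low end of the mucus range, with a median gate share of 2.82%, 2.55%, 1.62% and 2.96% against 9.43%, 6.20%, 7.44% and 7.77% in the rest.

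A part of the goblet barcodes leaned towards Paneth cells, the defensin-secreting cells of the crypt base. Barcodes with 1 to 10% defensin UMIs made up 14.6% and 20.0% of goblet barcodes in WT libraries against 19.7% and 27.3% in Setdb1-KO libraries, with overlap between the genotypes and no test, since the rule used the defensin share. They carried more of several Paneth genes that the rule did not use. Lyz1, lysozyme, stood at 656, 893, 2476 and 1482 CPM in them against 259, 294, 532 and 411 CPM in the remaining goblet barcodes, and the lectin Itln1 at 5099, 6261, 3188 and 2438 against 615, 770.5, 345 and 785 CPM. Spink4 was also higher, 59647, 66561, 55443 and 54517 against 31382, 34142, 36459 and 30084 CPM. Mptx2, at 9.28, 19.0, 12.5 and 27.5 against 7.32, 21.1, 3.19 and 14.5 CPM, was not higher in the second WT library. Reg3b, at 747, 731, 333 and 345 against 927, 1025, 271 and 341 CPM, was lower in them in both WT libraries. Agr2 was lower in all 4 libraries, 20730.1, 18139, 17242 and 17915 against 26665, 23072, 27238 and 19292 CPM, and Tff3 was higher in 3 of 4, 22186, 20918, 21894 and 22149 against 19843, 17439, 23438 and 18764 CPM. Whether each of them is a single cell was not tested.

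The comparison of genotypes asked how goblet cells of the Setdb1-KO crypts differ from those of WT crypts. UMIs were summed over the goblet barcodes of each library and compared by the quasi-likelihood test of edgeR, with p-values adjusted by the Benjamini-Hochberg method over all 10203 genes tested, and levels below are normalised CPM, with library totals scaled by TMM factors. Setdb1 itself stood at 7.34 and 7.05 CPM in the WT and 5.43 and 5.51 CPM in the Setdb1-KO libraries (log2 fold change -0.39, SE 0.27, adjusted p = 0.995). Its reads come from the 3′ end, outside the floxed exon, so this level does not measure the deletion. The gate genes chose the cells in both genotypes, so their levels, on the plain CPM scale, are a description with no test. Muc2 stood at 5547 and 4551 CPM in WT libraries against 4974 and 4754 CPM in Setdb1-KO libraries, Zg16 at 87177, 61202, 81904 and 78359, Clca1 at 3337, 2752, 3144 and 2705 and Fcgbp at 10889, 10492, 14802 and 11728 CPM in that order. Fcgbp was higher in both Setdb1-KO libraries than in both WT libraries, while Muc2, Zg16 and Clca1 overlapped.

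Few genes changed: 26 passed an adjusted p of 0.05 (0.255% of those tested), 14 higher (0.137%) and 12 lower (0.118%) in Setdb1-KO. At an unadjusted p of 0.05 there were 575 (5.64%). Both libraries of one genotype lay beyond both of the other for 33.9% of genes, 16.7% higher and 17.2% lower in Setdb1-KO, which is the background for the same count in a gene list. The number of calls rests on few libraries: it was 34 and 43 without WT replicate 1 or 2, and 142 and 116 without Setdb1-KO replicate 1 or 2, fits in which the lone library is taken to vary like the pair of the other genotype. With marked doublets removed it was 60, of which 25 were among the 26.

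**Figure D4:**
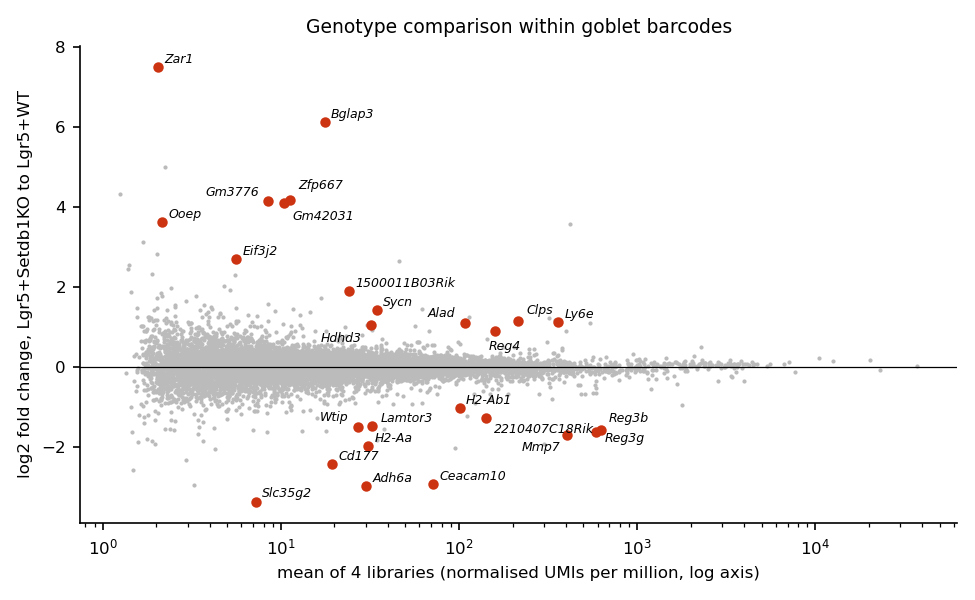
Log2 fold change of Lgr5+Setdb1KO to Lgr5+WT goblet barcodes (vertical axis) against the mean level of the 4 libraries (horizontal axis, normalised CPM, log scale), 1 point per gene tested. Red points with names are the 26 genes past the adjusted threshold, 14 above and 12 below 0.

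The goblet products given here and the secretory lineage transcription factors had no call. Of all genes tested 0.255% passed, a share at which a list of 25 genes would mostly hold none. Of 34 tested mucus proteins and secreted products, 2 were called higher and 2 lower, as described below. In that list 8 lay higher and 12 lower without overlap, against 16.7% and 17.2% of all genes tested. Agr2 stood at 25152 and 22686 CPM in the WT and 25746 and 19176 CPM in the Setdb1-KO libraries (log2 fold change -0.09, SE 0.23), Tff3 at 19540.0 and 18365 CPM in the WT and 23222 and 19721 CPM in the Setdb1-KO libraries (0.18, SE 0.21) and Spink4 at 33890.3 and 40283 CPM in the WT and 39361 and 35927 CPM in the Setdb1-KO libraries (0.02, SE 0.23). Libraries of the genotypes overlapped for Agr2 and Spink4, and all 3 genes had adjusted p = 0.995. Guca2a stood at 4071 and 3739 CPM in the WT and 4025 and 3611 CPM in the Setdb1-KO libraries (-0.03) and Lypd8 at 3377 and 3020.4 CPM in the WT and 2658 and 2371 CPM in the Setdb1-KO libraries (-0.35, adjusted p = 0.911). Of the 25 tested secretory lineage transcription factors none passed (0 higher, 0 lower), and Atoh1 stood at 174 and 145 CPM in the WT and 177 and 139.6 CPM in the Setdb1-KO libraries, Spdef at 173 and 112 CPM in the WT and 171 and 123 CPM in the Setdb1-KO libraries and Klf4 at 244 and 228 CPM in the WT and 318 and 261 CPM in the Setdb1-KO libraries (log2 fold changes -0.01, 0.03 and 0.30).

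The machinery behind the mucus gave no call either. Of all genes tested 0.255% passed, a share at which lists of the sizes below would mostly hold no call. No gene passed, in either direction, among 67 tested genes of folding and export in the endoplasmic reticulum (median log2 fold change 0.02, against 0.00 over all genes tested), 48 of mucin O-glycosylation and sugar supply (-0.08), 23 of granule exocytosis (0.05), 17 ion channels and transporters of mucus release (0.03) and 18 of endoplasmic reticulum stress (0.12). The translocon subunit Sec61b stood at 1453 and 1538 CPM in the WT and 1697 and 1469 CPM in the Setdb1-KO libraries, Ssr4, of the translocon-associated complex, at 1388 and 1479.6 CPM in the WT and 1401 and 1391 CPM in the Setdb1-KO libraries, and Gmds, an enzyme of GDP-fucose synthesis, at 627 and 696 CPM in the WT and 541 and 487 CPM in the Setdb1-KO libraries. In the glycosylation list 15 genes lay lower without overlap and 4 higher, of 48 tested, against 17.2% and 16.7% of all genes tested. Scinderin stood at 262 and 228 CPM in the WT and 439 and 312 CPM in the Setdb1-KO libraries (0.61, adjusted p = 0.391). None of 16 tested genes of H3K9 methylation passed. The lists of other cells and states gave 0 calls among 15 stem cell genes (median -0.30), 10 dividing cell genes (-0.08), 14 p53 targets (-0.10), 8 enteroendocrine genes (0.91) and 9 tuft cell genes (0.38), and no blood cell gene was high enough to be tested.

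Antibacterial lectins of the Reg3 family fell in Setdb1-KO goblet cells. Reg3b and Reg3g are C-type lectins released into the gut lumen, where Reg3g binds Gram-positive bacteria. Reg3b stood at 878 and 996 CPM in the WT and 281 and 345 CPM in the Setdb1-KO libraries, with both Setdb1-KO libraries far below both WT libraries (log2 fold change -1.58, SE 0.17, adjusted p = 0.00313). Reg3g stood at 835 and 946 CPM in the WT and 210.2 and 364 CPM in the Setdb1-KO libraries (log2 fold change -1.63, SE 0.23, adjusted p = 0.0164), again without overlap. Of 34 tested mucus proteins and secreted products these were the 2 that fell, and 2, Clps and Reg4, rose. Reg3g is also the only called gene of 16 tested enterocyte genes, and Mmp7, described below, the only one of 9 tested Paneth genes.

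Both genes lie on chromosome 6, 92.8 kb apart and on opposite strands, and their promoters are shown because the pair moved together. The sequences are the 200 bases before each start site in RefSeq (build GRCm38.p6, chr6:78370685-78370884 on the plus strand and chr6:78468875-78469074 on the minus strand), written 5′ to 3′ along the gene, and the capitals mark the TATA-box letters TATAAAA.
Reg3b: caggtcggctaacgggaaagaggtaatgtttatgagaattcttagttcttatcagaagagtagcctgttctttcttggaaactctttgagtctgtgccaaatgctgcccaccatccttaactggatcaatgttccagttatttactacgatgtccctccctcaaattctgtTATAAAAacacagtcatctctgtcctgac
Reg3g: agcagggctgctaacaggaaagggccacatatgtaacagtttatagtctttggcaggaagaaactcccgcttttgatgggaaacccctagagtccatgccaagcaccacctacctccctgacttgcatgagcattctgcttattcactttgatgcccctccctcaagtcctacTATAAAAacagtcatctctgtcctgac
TATAAAA begins at position -29 from the start site in Reg3b and -27 in Reg3g, and on either strand it is held by 4.00% of 32851 RefSeq promoter windows of this length. With 1 sequence shifted by 2 bases so that these boxes align, the promoters are identical at 114 of 198 positions (57.6%). Without the shift, the 20 bases directly before the start site are the same in both. A match is a description of these letters only.

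The Reg3 transcripts were unevenly spread over the cells. After thinning to 2000 UMIs, 19.8% and 27.1% of goblet barcodes in WT libraries against 7.87% and 13.9% in Setdb1-KO libraries held a Reg3b UMI (34.0%, 43.3%, 19.0% and 20.9% without thinning), and the tenth of barcodes richest in it held 92.2%, 83.9%, 100% and 93.2% of its UMIs. For Reg3g the shares were 26.1% and 33.7% in WT libraries against 9.49% and 18.4% in Setdb1-KO libraries. Tuft-gated barcodes of the same libraries, a cell type that should lack both, gave 4.35%, 9.23%, 2.597% and 2.84% for Reg3b and 2.17%, 10.8%, 0% and 2.84% for Reg3g. They were other kept barcodes with at least 1% of UMIs from 13 tuft cell genes and under 0.25% from Muc2, Zg16, Clca1 and Fcgbp. After thinning they numbered 46, 65, 77 and 141, so that each share rests on few barcodes. The limit on the mucus genes also holds down stray goblet RNA in them, so that these shares can understate the background. Enterocytes also make Reg3g. When barcodes with over 0.5% of UMIs from an enterocyte list that includes Reg3g itself were left out, an alternative chosen after the data were seen, the adjusted p was 0.544 for Reg3b and 0.198 for Reg3g (log2 fold changes -0.99 and -1.26). With Reg3g taken off that list, both calls held (adjusted p = 0.0107 and 0.0363).

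Mmp7, the matrix protease that activates defensins in Paneth cells, fell from 508 and 735 CPM in the WT libraries to 169.5 and 211 CPM in the Setdb1-KO libraries (log2 fold change -1.70, SE 0.20, adjusted p = 0.00560). A Mmp7 UMI was found in 41.1% and 49.9% of thinned goblet barcodes in WT libraries against 17.1% and 23.6% in Setdb1-KO libraries, and in 2.17%, 3.08%, 1.30% and 4.26% of tuft-gated ones. Ccl6 stood at 2359 and 2389.7 CPM in the WT and 1148 and 1298 CPM in the Setdb1-KO libraries, without overlap but just short of the threshold (log2 fold change -0.96, SE 0.16, adjusted p = 0.0506). Ang4, an antimicrobial ribonuclease, stood at 123 and 179.8 CPM in the WT and 56.4 and 21.6 CPM in the Setdb1-KO libraries (log2 fold change -2.02, SE 0.35, adjusted p = 0.0516), where free RNA could be up to 45.0% and 78.4% of the Setdb1-KO values. Lysozyme, Lyz1, stood at 299 and 401 CPM in the WT and 827 and 658 CPM in the Setdb1-KO libraries, higher without overlap (log2 fold change 1.08, SE 0.19, adjusted p = 0.0506). A Lyz1 UMI was found in 27.5% and 30.8% of thinned goblet barcodes in WT libraries against 40.97% and 46.7% in Setdb1-KO libraries. Tuft-gated ones gave 8.70%, 7.69%, 9.09% and 29.8% in library order, highest in the second Setdb1-KO library. The part of this background was not tested. Lineage-traced goblet cells went the other way, with Lyz1 at 408 and 496 CPM in WT and 132 and 164 CPM in Setdb1-KO (scaled over 8 libraries). Of 18 alternatives, Ccl6 passed in 7, Ang4 in 13 and Lyz1 in 10. By DESeq2 the adjusted p of Ang4 was 0.606, and that of Lyz1 was 0.413 at a gate of 2%. Paneth-leaning barcodes were 14.6% and 20.0% of the goblet barcodes in WT and 19.7% and 27.3% in Setdb1-KO, with overlap between the genotypes. Without them Lyz1 still lay higher in Setdb1-KO without overlap, at 259 and 294 CPM in WT and 532 and 411 CPM in Setdb1-KO on the plain CPM scale (log2 fold change 0.79, adjusted p = 0.265), and Mmp7 kept its call (log2 fold change -1.90, adjusted p = 0.00448). Mptx1, a mucosal pentraxin, stood at 93.9 and 35.7 CPM in the WT and 155 and 1392 CPM in the Setdb1-KO libraries (adjusted p = 0.158). Both Setdb1-KO libraries lay above both WT libraries, the second far above the first. In lineage-traced goblet cells it stood at 168 and 33.3 CPM in WT and 757 and 1697 CPM in Setdb1-KO (scaled over 8 libraries).

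Clps, Reg4 and Sycn rose. Clps, colipase, a cofactor of fat digestion, stood at 125 and 141 CPM in the WT and 348 and 246 CPM in the Setdb1-KO libraries (log2 fold change 1.16, SE 0.18, adjusted p = 0.0331), and a Clps UMI was found in 18.5% and 18.6% of thinned goblet barcodes in WT libraries against 37.5% and 31.8% in Setdb1-KO libraries, and in 2.17%, 9.23%, 0% and 7.09% of tuft-gated ones. Reg4 stood at 108 and 116 CPM in the WT and 188 and 225 CPM in the Setdb1-KO libraries (log2 fold change 0.88, SE 0.15, adjusted p = 0.0457), and Sycn, syncollin, a zymogen granule protein, at 14.9 and 23.3 CPM in the WT and 47.2 and 53.5 CPM in the Setdb1-KO libraries (log2 fold change 1.42, SE 0.21, adjusted p = 0.0192). The libraries of the genotypes did not overlap for any of the 3. Lineage-traced goblet cells differed in part (CPM scaled over 8 libraries). Clps was lower in Setdb1-KO there without overlap, at 264 and 198 CPM in WT and 70.9 and 126 CPM in Setdb1-KO. Reg4 was higher without overlap, at 50.5 and 84.2 CPM in WT and 193 and 231 CPM in Setdb1-KO. Sycn overlapped, at 332 and 292 CPM in WT and 118 and 320 CPM in Setdb1-KO. Reg4 lost its call in 9 of 18 alternatives, and Clps and Sycn each in 2. Without WT replicate 1 the adjusted p was 0.114 for Clps, 0.242 for Reg4 and 0.0754 for Sycn, and without WT replicate 2 that of Reg4 was 0.123.

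Genes of MHC class II, which presents peptides to CD4+ T cells and is made by crypt epithelium as well as by immune cells, lay lower in Setdb1-KO goblet cells, and H2-Ab1 and H2-Aa, the chains of the I-A molecule, fell. H2-Ab1 stood at 152 and 119.9 CPM in the WT and 58.3 and 73.2 CPM in the Setdb1-KO libraries (log2 fold change -1.04, SE 0.17, adjusted p = 0.0431), and H2-Aa at 56.8 and 43.8 CPM in the WT and 5.70 and 17.5 CPM in the Setdb1-KO libraries (log2 fold change -1.98, SE 0.33, adjusted p = 0.0457). The I-E chain H2-Eb1 stood at 61.2 and 49.8 CPM in the WT and 6.51 and 21.9 CPM in the Setdb1-KO libraries (adjusted p = 0.0798) and the invariant chain Cd74, which escorts class II molecules, at 532 and 428 CPM in the WT and 37.7 and 207 CPM in the Setdb1-KO libraries (adjusted p = 0.309). All 6 tested genes of the list lay lower without overlap, as 17.2% of all genes did, and 2 passed, with a median log2 fold change of -1.72, and the first Setdb1-KO library was the lowest for every one of them. A Cd74 UMI was found in 36.0% and 33.2% of thinned goblet barcodes in WT libraries against 4.86% and 16.2% in Setdb1-KO libraries and in 13.0%, 9.23%, 3.90% and 3.55% of tuft-gated ones. The blood cell list at 2.91, 14.3, 0 and 2.73 CPM in library order was higher in the second WT library than in the others, and its part in the result was not tested. H2-Aa lost its call in 6 and H2-Ab1 in 4 of 18 alternatives, and H2-Eb1 passed in 9. Without WT replicate 1 the adjusted p of H2-Ab1 was 0.177, and that of H2-Aa was 0.654 by DESeq2.

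Class II promoters carry a Y box, an inverted CCAAT sequence that is part of the module read by the class II transactivator. Those of H2-Aa and H2-Eb1 are shown as those of 1 gene that fell and 1 that lay lower without a call (chr17:34287824-34288023 on the minus strand and chr17:34305667-34305866 on the plus strand, RefSeq, GRCm38.p6), with the letters CTGATTGG in capitals.
H2-Aa: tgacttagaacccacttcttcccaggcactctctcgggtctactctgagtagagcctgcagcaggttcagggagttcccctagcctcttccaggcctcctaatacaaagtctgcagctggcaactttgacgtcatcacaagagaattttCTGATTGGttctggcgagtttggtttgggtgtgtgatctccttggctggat
H2-Eb1: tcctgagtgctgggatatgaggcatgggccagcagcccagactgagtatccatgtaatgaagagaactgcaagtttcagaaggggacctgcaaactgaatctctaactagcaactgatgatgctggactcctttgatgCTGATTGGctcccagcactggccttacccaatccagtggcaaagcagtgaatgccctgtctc
The letters begin at position -51 from the start site in H2-Aa and -62 in H2-Eb1, and 3.54% of the same RefSeq windows hold them on either strand. Whether a factor was bound there was not measured.

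Of the interferon response genes none passed (0 higher, 0 lower of 23 tested), where 0.255% of all genes tested did. Their median log2 fold change was -0.61, with 21 negative and 15 lower without overlap. Of all 10203 genes tested, 5019 were negative and 17.2% lay lower without overlap. Isg15, a ubiquitin-like protein induced by interferon, stood at 52.1 and 38.7 CPM in the WT and 23.3 and 25.7 CPM in the Setdb1-KO libraries (adjusted p = 0.112), Irf1 at 60.4 and 50.03 CPM in the WT and 35.8 and 33.9 CPM in the Setdb1-KO libraries (adjusted p = 0.190) and Bst2, tetherin, at 71.3 and 55.6 CPM in the WT and 42.9 and 45.0 CPM in the Setdb1-KO libraries (adjusted p = 0.444). In contrast Ly6e, a surface protein that interferon can induce, rose, from 236 and 219.8 CPM in the WT libraries to 518 and 468 CPM in the Setdb1-KO libraries (log2 fold change 1.11, SE 0.15, adjusted p = 0.00921), and was found in 36.3% and 34.3% of thinned goblet barcodes in WT libraries against 56.9% and 57.8% in Setdb1-KO libraries, and in 10.9%, 10.8%, 7.79% and 9.93% of tuft-gated ones. The rise was not seen in lineage-traced goblet cells. Ly6e stood there at 166 and 114 CPM in WT and 61.4 and 82.4 CPM in Setdb1-KO, lower without overlap (scaled over 8 libraries).

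A further 7 genes fell. Ceacam10, of the carcinoembryonic antigen family, had the smallest p of all genes, falling from 100.5 and 153 CPM in the WT libraries to 13.6 and 18.6 CPM in the Setdb1-KO libraries (log2 fold change -2.94, SE 0.23, adjusted p = 0.00133). A Ceacam10 UMI was found in 15.3% and 21.5% of thinned goblet barcodes in WT libraries against 2.78% and 2.61% in Setdb1-KO libraries, and in 0%, 1.54%, 0% and 0.709% of tuft-gated ones. Its neighbour Cd177, known as a neutrophil surface antigen, stood at 26.7 and 37.8 CPM in the WT and 8.41 and 4.55 CPM in the Setdb1-KO libraries (log2 fold change -2.43). The solute carrier Slc35g2 went from 14.1 and 12.2 CPM to 1.36 and 1.20 CPM in the Setdb1-KO libraries (-3.37), the alcohol dehydrogenase Adh6a from 39.0 and 69.1 CPM to 4.61 and 8.02 CPM in the Setdb1-KO libraries (-2.99) and Lamtor3, a scaffold of lysosomal growth signalling, from 46.5 and 49.8 CPM to 16.8 and 17.5 CPM in the Setdb1-KO libraries (-1.48). 2210407C18Rik (-1.28) and the LIM domain protein Wtip (-1.51) completed the list. The adjusted p of these 7 genes ran from 0.00133 (Ceacam10) to 0.00720 (Wtip), and each call held under every alternative in which the gene was tested.

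Several of the genes that rose were close to silent in WT goblet cells. Bglap3, an osteocalcin relative, stood at 0.376 and 0.641 CPM in the WT and 22.2 and 47.4 CPM in the Setdb1-KO libraries (log2 fold change 6.11, SE 0.53, adjusted p = 0.00168), 5 UMIs over both WT libraries against 478 over both Setdb1-KO libraries. Zar1, an oocyte protein, had 0 UMIs over both WT libraries and 49 over both Setdb1-KO libraries, at least 13.4-fold higher against a floor of 3 UMIs over the WT pair. Ooep, also of oocytes, had 3 and 47 UMIs. The zinc finger gene Zfp667 stood at 0.753 and 1.496 CPM in the WT and 29.3 and 13.5 CPM in the Setdb1-KO libraries (log2 fold change 4.18), Gm3776 at 0.188 and 1.71 CPM in the WT and 11.9 and 20.0 CPM in the Setdb1-KO libraries (4.16), Gm42031 at 1.51 and 0.855 CPM in the WT and 10.9 and 28.4 CPM in the Setdb1-KO libraries (4.09) and the translation factor gene Eif3j2 at 1.32 and 1.71 CPM in the WT and 8.95 and 10.5 CPM in the Setdb1-KO libraries (2.70). Genes with a WT level that also rose were 1500011B03Rik (1.89), Alad, an enzyme of haem synthesis (1.101), and Hdhd3 (1.04). Bglap3 and Eif3j2 have close paralogues, so that the assignment of their UMIs is uncertain. Among lineage-traced goblet cells Zfp667, Gm42031, Eif3j2 and 1500011B03Rik also lay higher in Setdb1-KO without overlap, and Ooep and Alad overlapped. Bglap3 did not rise there, at 3.83 and 1.959 CPM in WT and 0 and 0 CPM in Setdb1-KO (scaled over 8 libraries). Zar1 was at 0 in every lineage-traced library, and Gm3776 lay lower in Setdb1-KO. Without WT replicate 1 the adjusted p was 0.0523 for Zar1, 0.153 for Ooep and 0.0956 for Alad, and without WT replicate 2 it was 0.168 for Ooep.

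Several called genes lay near each other. How often tested genes lie as close, or move the same way as such a neighbour, was not counted, so the pairs are a description only. Within 500 kb of each other lay 6 pairs, taking in 12 of the 26 genes, and in all of them both genes moved the same way: Alad and Hdhd3 (3.78 kb), H2-Ab1 and H2-Aa (13.3 kb), Ceacam10 and Cd177 (16.8 kb), Reg3b and Reg3g (92.8 kb), Gm3776 and Ooep (108 kb), and Lamtor3 and Adh6a (385 kb). Chromosome 3, which carries Setdb1, held 4 called genes: Reg4 2.90 Mb and Bglap3 6.95 Mb from it, and Lamtor3 and Adh6a 42.6 and 43.0 Mb away. Of all tested genes with a position, 4.91% lie on that chromosome. DNA from around the floxed allele that came with it and the loss of Setdb1 cannot be told apart.

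**Figure D5:**
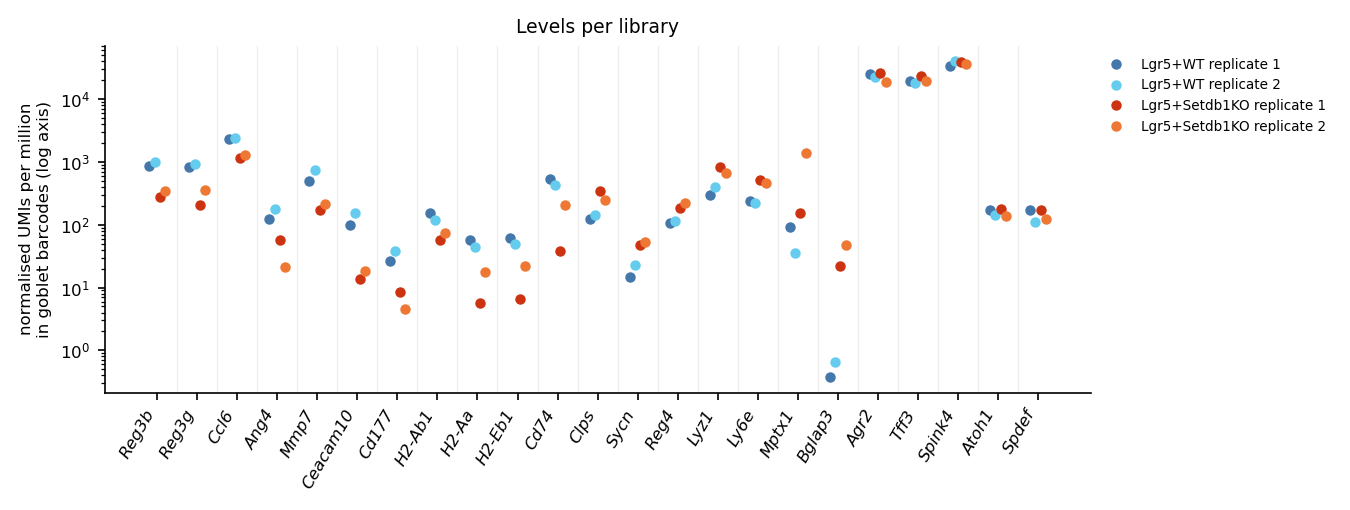
Levels of 23 genes in the goblet barcodes of each library (vertical axis, normalised CPM, log scale), 1 point per library. Blue points (Lgr5+WT) lie above red and orange points (Lgr5+Setdb1KO) for Reg3b to Cd74, below them for Clps to Bglap3, and among them for Agr2, Spink4, Atoh1 and Spdef, while for Tff3 both Lgr5+Setdb1KO points lie just above the Lgr5+WT points.

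Whether any of this was particular to goblet cells was tested as the difference between the genotype effect in goblet barcodes and that in the other kept barcodes of the same libraries. Of 12710 genes tested by edgeR's quasi-likelihood test, 0 passed (0%), and 618 (4.86%) had an unadjusted p under 0.05. In simulated data this test found 58% of 2-fold differences, so that a count of 0 does not show equal effects. The count depended on the libraries: it was 0 and 10 without WT replicate 1 or 2, 69 and 164 without Setdb1-KO replicate 1 or 2, and 32 with marked doublets removed. Levels in the other barcodes are plain CPM here, while those of Cdkn1a and Ffar2 below are normalised within this fit. The other barcodes showed the same directions for the strongest genes: Ceacam10 stood there at 98.9 and 108 CPM in WT and 13.8 and 21.4 CPM in Setdb1-KO, Adh6a at 148 and 139.9 CPM in WT and 24.5 and 22.8 CPM in Setdb1-KO, Bglap3 at 0.3005 and 0.463 CPM in WT and 12.5 and 23.0 CPM in Setdb1-KO and Ly6e at 112 and 109 CPM in WT and 236 and 221 CPM in Setdb1-KO. Reg3b stood there at 763 and 1132 CPM in WT and 482 and 399 CPM in Setdb1-KO. Class II levels in WT were higher outside goblet cells, with H2-Aa at 219.9 and 129 CPM in WT and 20.9 and 47.5 CPM in Setdb1-KO and Cd74 at 1839 and 1169 CPM in WT and 226 and 526 CPM in Setdb1-KO. Of the genes called within goblet cells, examples with a more negative effect in goblet barcodes than outside them, none of which passed, were Mmp7 (difference of log2 fold changes -1.07, SE 0.19, adjusted p = 0.108), Wtip (-1.11, SE 0.20, adjusted p = 0.108) and Slc35g2 (-2.04, SE 0.40, adjusted p = 0.201). H2-Ab1 fell less in goblet barcodes than outside them, also without a call on the difference (0.87, SE 0.21, adjusted p = 0.515). Genes with the smallest p of all included Cdkn1a, the cell cycle inhibitor p21, at 72.8, 72.0, 79.1 and 64.8 CPM in the goblet barcodes and 22.5, 23.5, 55.2 and 35.8 CPM in the other barcodes in library order, and Ffar2, a receptor for short-chain fatty acids, at 44.9, 26.8, 34.3 and 30.1 CPM in the goblet barcodes and 6.23, 4.57, 14.1 and 10.0 CPM in the other barcodes in library order (differences -0.96 and -1.26, adjusted p = 0.104 for both). Both overlapped between genotypes in goblet barcodes and were higher in both Setdb1-KO libraries outside them.

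The same gate found goblet cells among lineage-traced cells, 617 and 163 barcodes in WT and 425 and 810 in Setdb1-KO, with which WT goblet cells of the Lgr5+ sort were compared in a fit of all 8 libraries. Sort, reporter allele, library preparation and depth cannot be told apart in this comparison. Of 10358 genes, 2704 differed (26.1%), 1323 higher (12.8%) and 1381 lower (13.3%) in the Lgr5+ sort. Levels in this fit are CPM scaled over 8 libraries. Of the genes of folding and export in the endoplasmic reticulum, 28 of 67 were higher and 4 lower, Ssr2, a translocon-associated protein, at 914 and 893 CPM against 128 and 135 CPM and Sdf2l1 at 188 and 181 CPM against 32.2 and 35.3 CPM. Enterocyte genes were lower, 12 of 17 and 0 higher. The carbonic anhydrases Car2, at 0.550 and 0.210 CPM against 172 and 198 CPM, and Car1, at 0 and 0 CPM against 311 and 946 CPM, were at or near 0 in the Lgr5+ sort.

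Goblet products split between the experiments. Lypd8, at 3291 and 2969.8 CPM against 738 and 779.5 CPM, Guca2a, at 3968 and 3676 CPM against 1607 and 1138 CPM, Tff3, at 19045 and 18058 CPM against 11936 and 8929 CPM, and Tpsg1, at 393 and 361 CPM against 129 and 119 CPM, were higher in the Lgr5+ sort. Reg3g, at 814 and 930.2 CPM against 2248 and 4358 CPM, Sycn, at 14.5 and 22.9 CPM against 332 and 292 CPM, and Retnlb, an antibacterial resistin-like protein, at 3.85 and 6.096 CPM against 102 and 116 CPM, were lower. Spink4, at 33032 and 39609 CPM against 64919 and 42171 CPM, did not pass (adjusted p = 0.162). Mucus proteins and secreted products were thus divided, 12 higher and 13 lower of 36 tested. Free RNA could reach 10.5% and 9.84% of goblet UMIs in the lineage-traced WT libraries, by bounds from mt-Nd3 and Defa35, kinds of genes that the rule limited. The Paneth list summed to 62438 and 66732 CPM in their goblet barcodes against 7866 and 11534 CPM in the WT libraries of the Lgr5+ sort. The part of free RNA and of these genes in the differences was not tested.

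The genotype effect itself differed between goblet cells of the Lgr5+ sort and lineage-traced ones for 82 of 10358 genes (0.792%), 72 more positive (0.695%) and 10 more negative (0.0965%) in the Lgr5+ sort. Within the lineage-traced goblet cells alone, 138 genes passed (1.33%), 25 higher (0.241%) and 113 lower (1.09%) in Setdb1-KO. Ceacam10 stood at 98.0 and 151 CPM in WT and 13.3 and 18.1 CPM in Setdb1-KO of the Lgr5+ sort, and 63.6 and 50.9 CPM in WT and 51.9 and 99.3 CPM in Setdb1-KO of the lineage-traced cells (interaction -3.35, SE 0.42, adjusted p = 9.13e-05): both Setdb1-KO libraries lay below both WT libraries in the Lgr5+ sort, while in the lineage-traced cells 1 Setdb1-KO library lay between the WT libraries. Mmp7 stood at 495 and 723 CPM in WT and 167 and 207 CPM in Setdb1-KO of the Lgr5+ sort, and 307 and 259 CPM in WT and 205 and 292 CPM in Setdb1-KO of the lineage-traced cells (interaction -1.52, SE 0.36, adjusted p = 0.0448). The apolipoprotein gene Apoa4, a marker of enterocytes, stood at 3.30 and 2.10 CPM in WT and 2.93 and 9.59 CPM in Setdb1-KO of the Lgr5+ sort, and 143 and 147 CPM in WT and 5.85 and 1.24 CPM in Setdb1-KO of the lineage-traced cells (interaction 6.95, SE 0.65, adjusted p = 4.79e-06). Of 17 enterocyte genes 11 had a more positive effect in the Lgr5+ sort and 0 a more negative one. The enterocyte list summed to 6908 and 16169.9 CPM in lineage-traced WT goblet barcodes and 3546 and 4739 CPM in lineage-traced Setdb1-KO ones. The Paneth list, which holds Mmp7, summed to 62438 and 66732 CPM in lineage-traced WT and 18056 and 24889 CPM in lineage-traced Setdb1-KO goblet barcodes, against 7866, 11534, 9871 and 13003 CPM in library order in the Lgr5+ sort. The part of both lists in these differences was not tested.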

How the data were processed

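Single-cell 3′ RNA libraries were analysed. The authors deposited raw UMI counts per gene for all barcodes of each library, made per the labels and the submitters' processing notes with Cell Ranger (6.1.1) on mm10, and the notes also name Seurat (5.0.3). The counts were used as deposited. The members and gene lists were chosen with earlier results of these data known. Counts were summed over the goblet barcodes of each library and tested with edgeR 4.0.16 (filterByExpr, TMM scaling, quasi-likelihood test, Benjamini-Hochberg adjustment) in R 4.3.3, on 2 against 2 libraries within the Lgr5+ sort and with an interaction term against other barcodes or lineage-traced goblet cells. The genotype test within the Lgr5+ sort and the interaction tests against other barcodes and lineage-traced cells were checked on simulated data. In that order they recovered 94%, 58% and 38% of 2-fold changes and 100%, 100% and 98% of 4-fold changes. The simulation used a fixed dispersion and no effect shared by the sums of a library. Floors cover counting error only. Genes were named by a fixed rule: Setdb1, the markers, the mucus and transcription factor lists, up to 12 genes per direction with the smallest adjusted p, an absolute log2 fold change of at least 1 and no overlap between genotypes (up to 8 in the other comparisons), and in each further list the called genes and those of highest mean CPM. Genes named along the gate share were those of the mucus and factor lists, with the steepest of all, and genes named in the comparison with lineage-traced cells include list members chosen after their values were seen. Also named outside the rule were the called gene Hdhd3, genes with the smallest p against other barcodes, and genes ranked by fold over other barcodes. Alternatives were DESeq2 1.42.0, other filters and gates, removal of doublets marked by a rebuilt DoubletFinder procedure, thinning, a replicate block and leaving out each library of the Lgr5+ sort. Limits on defensin and enterocyte genes were added after the data were seen.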

Additional observations from a re-analysis of the deposited data

Results flagged for a closer look

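For 82 genes the genotype effect in goblet cells differed between the Lgr5+ sort and lineage-traced cells by the interaction test of edgeR, at the adjusted threshold of 0.05, 72 more positive and 10 more negative in the Lgr5+ sort. The rule for named genes took 8 in each direction. Values are differences of log2 fold changes, Lgr5+ sort minus lineage-traced. The named genes with a more positive effect in the Lgr5+ sort were the apolipoprotein genes Apoa4 (6.95), Apoa1 (5.82) and Apoc3 (5.01), the ileal bile acid-binding protein Fabp6 (3.61), the glutathione transferases Gsta1 (3.18) and Gstm3 (3.35), the sulfotransferase Sult6b2 (7.68) and Gm3776 (8.12). Gsta1 stood at 96.1 and 70.2 CPM in WT and 69.6 and 78.0 CPM in Setdb1-KO of the Lgr5+ sort against 509 and 733 and 57.0 and 63.1 CPM in the same genotypes of the lineage-traced cells, so that the difference lay in the lineage-traced WT libraries. Gm3776 stood at 0.183 and 1.68 CPM in WT and 11.7 and 19.5 CPM in Setdb1-KO of the Lgr5+ sort against 9.96 and 54.8 and 1.46 and 1.65 CPM in the same genotypes of the lineage-traced cells, opposite in direction in the 2 experiments, both without overlap.

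The named genes with a more negative effect were Ceacam10 (-3.35), its neighbour Cd177 (-2.07), Slc35g2 (-3.27), Mmp7 (-1.52) and the interferon-induced genes Ifitm3 (-2.56), Isg15 (-2.31), Bst2 (-2.07) and Ifi44 (-11.06). Ifitm3 stood at 114 and 183 CPM in WT and 68.0 and 114 CPM in Setdb1-KO of the Lgr5+ sort against 68.2 and 52.9 and 238 and 215 CPM in the same genotypes of the lineage-traced cells. Bst2 stood at 69.5 and 54.7 CPM in WT and 42.1 and 44.0 CPM in Setdb1-KO of the Lgr5+ sort against 13.8 and 27.4 and 30.0 and 72.1 CPM in the same genotypes of the lineage-traced cells. Ifi44 stood at 6.42 and 1.26 CPM in WT and 0.533 and 0 CPM in Setdb1-KO of the Lgr5+ sort against 0 and 0 and 1.46 and 5.36 CPM in the same genotypes of the lineage-traced cells, and its fitted difference depends on the prior count because whole groups are at or near 0.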

How the results depend on the processing

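The 26 calls within goblet cells became 185 without a filter on low counts, 60 with doublets removed, 45 after thinning and 34 to 142 with 1 library left out. They were 37 by DESeq2, 39 in a fit of all 8 libraries and 23 and 27 at gates of 2% and 0.5%. The difference from other barcodes, 0 calls (618 at an unadjusted p under 0.05), became 52 without the filter, 8 at a gate of 0.5%, 32 without doublets and 0 to 164 with 1 library left out, and it was not run with DESeq2. The difference from lineage-traced cells, 82 calls, became 171 without the filter and 47 without doublets, with 74 to 120 on leaving out a library. The comparison of WT goblet cells, 2704 calls, ran from 1870 to 2678 on leaving out a library. The difference in goblet share was 0.308 to 3.70 percentage points and that in dividing share -2.45 to 3.02 on leaving out a library. The libraries left out were those of the Lgr5+ sort, 1 at a time, and no lineage-traced library was left out of any fit. The cause of these shifts was not tested.

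Whether libraries of the same replicate number shared a day or a litter is not stated, and the main fits did not pair them. Deviations of the replicate 1 libraries from their genotype means correlated at r = 0.185 between the genotypes, and those of replicate 2 are their mirror image. With the replicate block there were 189 calls within goblet cells, 26 of them among the 26, 85 against other barcodes, 87 against lineage-traced cells and 2721 between the WT goblet cells of both experiments.

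Of the adjusted p values of single genes under the alternatives, 471 stayed on their side of the threshold, 45 passed it and 34 no longer passed, with no change of direction. By DESeq2 the adjusted p was 0.122 for Gm3776, 0.151 for Ooep and 0.654 for H2-Aa, after thinning it was 0.137 for Eif3j2, and at a gate of 2% it was 0.127 for H2-Ab1 and 0.131 for H2-Aa. Reg4 missed the threshold under 9 of 18 alternatives, among them the 10% mitochondrial limit (0.0505). Goblet barcodes of the second Setdb1-KO library had a median of 4359 UMIs, and the part of depth in these losses was not tested.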

Other observations

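Besides mucus products, genes of other kinds followed the share of the gate genes in goblet barcodes of all 4 libraries. Ifi27l2b had the most even climb of the steepest genes, with a fold of 4.69 to 4.99 between the highest and lowest bin and mean levels of 510.2 and 2487 CPM. Tm4sf4, a tetraspanin-like membrane protein (4.20 to 6.89), Rgs2, a regulator of G protein signalling (4.07 to 6.34), the apolipoprotein gene Apoc2 (3.68 to 9.67) and Ramp1, a subunit of the CGRP receptor (3.03 to 3.80), were higher there too. At the opposite end lay genes of the cell cycle such as Top2a (0.0510 to 0.190) and Birc5 (0.0637 to 0.271). They were joined by the secreted ribonuclease Rnase1 (0.192 to 0.294), which is no cell cycle gene. Clec2h, whose genotype effect differed most from that of other barcodes by p (difference of log2 fold changes -1.01, adjusted p = 0.104 by edgeR), also climbed along the bins, by 2.86 to 4.25. These levels are a description with no test, since the gate genes define the bins.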
